A study of Mus musculus with 4 samples.

Results

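The marrow of bone holds reticular stromal cells that make the chemokine Cxcl12, and 9 genes used to recognise or regulate such cells were followed across 4 expression arrays of sorted mouse bone marrow cells. They are the leptin receptor Lepr, the transcription factors Ebf1, Ebf3 and Foxc1, the platelet-derived growth factor (PDGF) receptors Pdgfra and Pdgfrb, the filament protein Nes (nestin), the surface enzyme Bst1 and the secreted proteoglycan Esm1. Probe sets annotated to exactly 1 of these symbols were taken, which gave 25 of 45037 tested probe sets and 9 of 18193 named genes, with no filter on low values. The first 8 genes were chosen by role, as regulators and surface markers of these cells. Esm1 was selected on its measured height on 1 array, so its values are given as a description with no test.

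The cells were Lin-, CD45-, CD31-, Sca1- and CD51+, a surface profile that the submitters use for osteoblasts, the cells that lay down bone. They came from adult NOD/SCID mice (NOD.CB17-Prkdcscid/J) described as recipients, in which the scid mutation blocks mature B and T cells; what the mice had received is not given in the sources used here. One group was taken from the trabecular bone area and the other from the long bone area, and both groups share strain and sort. Each area has 2 arrays, called biological replicates, and since the labels do not say whether they came from separate mice, p-values measure only the spread between these samples.

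As background, cells with leptin receptor lie around the sinusoids of the marrow, make most of its Cxcl12 and stem cell factor, and can give rise to fat and bone cells. Foxc1 and the EBF factors are needed to keep that identity, Ebf1 is also the factor that starts B cell development, and the PDGF receptors mark mesenchymal cells widely. Nestin marks stromal cells near vessels, Bst1 is an enzyme of NAD metabolism found on stroma and on myeloid and early B cells, and Esm1 is best known from endothelial cells at the tips of growing vessels.

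The values were taken to be on a log2 scale and are centred as deposited, so that in each probe set the median over the 4 arrays is 0. Each gene therefore has differences between arrays and no level. In each probe set the middle pair of arrays lies evenly around 0. The distance of a value from 0 thus depends on the other arrays, while the order of the arrays is kept. A gene with several probe sets is their mean, so its middle pair need not lie evenly around 0. Presence or absence of a marker could not be read from such values, which also holds for the markers of the sort: Itgav, the gene of CD51, lay between -0.11 and 0.11 on the 4 arrays, Ptprc (CD45) between -0.50 and 0.59 and Pecam1 (CD31) between -0.08 and 0.07. In bulk samples like these, fewer cells of a type and less RNA per cell cannot be told apart. Long bone array 2 stood apart as a whole. Its SD over probe sets was 0.483 against 0.271 to 0.311 on the others, and the 5' minus 3' difference of its Gapdh control, which reads RNA integrity and amplification, was -1.16 against -0.09 to 0.31. The same difference of the Actb control was -0.04 there, within the range of the other arrays (-0.07 to 0.44). The labelling controls, 15 probe sets for bacterial RNAs that can be added to a sample before labelling, had a median of -0.61 there against -0.22 to 0.23 on the others. The area differences of the 9 genes are therefore given with and without that array.

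On long bone array 2, 7 of the 9 genes had their highest value, at least 1 above the 4-array median on the log2 scale (35.2% of all genes were highest on that array). Nes was nearly flat, and Bst1 was highest on trabecular array 1, as were 28% of all genes. None of the 8 tested genes passed the threshold for a difference between the areas in limma across all genes. The promoters of the genes that were high together are shown first, as the stretch of 250 bases before the start of the gene, to let them be compared by eye and by motif. Windows of 7 members were read from RefSeq (GRCm38.p6), all but Pdgfrb and Bst1, and both Lepr and Ebf1 have a second start. The first starts of Lepr and Ebf3, of Esm1, the highest gene on that array, and of Nes, the flat one, are printed 5' to 3', with capitals for a motif match.
Lepr, chr4:101717157-101717406, plus strand: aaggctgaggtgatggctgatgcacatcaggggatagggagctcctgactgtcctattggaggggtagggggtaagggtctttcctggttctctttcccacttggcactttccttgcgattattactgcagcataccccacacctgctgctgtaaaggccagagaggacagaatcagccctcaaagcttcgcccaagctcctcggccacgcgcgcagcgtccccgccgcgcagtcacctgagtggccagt
Ebf3, chr7:137314446-137314695, minus strand: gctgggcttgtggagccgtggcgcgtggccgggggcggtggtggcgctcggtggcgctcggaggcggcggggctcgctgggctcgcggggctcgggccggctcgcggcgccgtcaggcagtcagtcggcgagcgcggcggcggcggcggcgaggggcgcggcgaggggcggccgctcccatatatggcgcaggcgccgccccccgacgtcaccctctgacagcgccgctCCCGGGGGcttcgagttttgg
Esm1, chr13:113209409-113209658, plus strand: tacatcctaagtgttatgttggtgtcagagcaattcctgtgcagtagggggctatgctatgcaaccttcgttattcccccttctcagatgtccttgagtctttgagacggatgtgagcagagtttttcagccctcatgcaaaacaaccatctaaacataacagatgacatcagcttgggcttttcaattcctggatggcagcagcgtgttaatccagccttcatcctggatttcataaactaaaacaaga
Nes, chr3:87970843-87971092, plus strand: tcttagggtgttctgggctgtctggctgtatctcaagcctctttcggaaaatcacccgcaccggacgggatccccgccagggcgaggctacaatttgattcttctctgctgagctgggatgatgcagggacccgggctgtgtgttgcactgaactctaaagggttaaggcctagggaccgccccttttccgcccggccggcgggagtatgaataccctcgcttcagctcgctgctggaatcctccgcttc
The windows were searched on both strands for CCCNNGGG, the core of the sites that EBF proteins bind, for the forkhead motif TGTTTAC and for TATAAA. Of the 9 windows of members, 1 held a match, the core at bases -21 to -14 of Ebf3 (the capitals above). Over 32851 windows of all genes the core occurred in 11.8%, the forkhead motif in 3.17% and TATAAA in 12.4%. A match is a description of the letters, and a window without one says nothing of binding. The windows differed in composition, with 80% G and C for Ebf3, 58.4% for this start of Lepr, 58.8% for Nes and 44% for Esm1, against a median of 52.4% over all windows.

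Among the receptors, Lepr (gene ID 16847), which binds the fat hormone leptin, read 0.09 and -0.58 in the trabecular pair of arrays (array 1 first, here and for the genes that follow). In the long bone pair it read -0.07 and 1.63. Long bone array 2 was high and the areas overlapped, since trabecular array 1 lay above long bone array 1. The area means were -0.25 ± 0.48 and 0.78 ± 1.20 (SD, n = 2 each), a log2 difference of -1.03, trabecular minus long bone (SE 0.62, 95% interval -2.67 to 0.62). In limma across all genes the adjusted p was 0.464, and without long bone array 2 the difference was -0.18.

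Pdgfra (gene ID 18595), the receptor for PDGF-A and other PDGF dimers, stood at -0.07 and -0.30 in the trabecular area and at 0.09 and 1.45 in the long bone area. Both long bone arrays lay above both trabecular ones, but long bone array 1 by little. The difference was -0.96 (SE 0.48, interval -2.22 to 0.31, limma adjusted p = 0.397), and -0.27 without long bone array 2.

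Pdgfrb (gene ID 18596), the receptor for PDGF-B on pericytes and other mesenchymal cells, stood at 0.00 and -0.73 in the trabecular area. The long bone pair read 0.00 and 1.90. Array 1 of both areas was all but tied, so the areas overlapped, and trabecular array 2 was low while long bone array 2 was high. It had the largest difference of the tested members, -1.31 (SE 0.69, interval -3.14 to 0.52, limma adjusted p = 0.417), and -0.36 without long bone array 2.

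The 3 transcription factors were also highest on long bone array 2. Ebf1 (gene ID 13591) stood at -0.13 and -0.09 in the trabecular area and at 0.03 and 1.66 in the long bone area. Long bone array 2 alone was high, and the areas did not overlap. The difference was -0.96 (SE 0.56, interval -2.44 to 0.53, limma adjusted p = 0.453), and -0.14 without that array.

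Ebf3 (gene ID 13593), a close relative of Ebf1 that binds the same DNA motif, stood at 0.01 and -0.55 in the trabecular area and at -0.01 and 1.76 in the long bone area. The areas overlapped. The difference was -1.14 (SE 0.63, interval -2.82 to 0.54, limma adjusted p = 0.437), and -0.25 without long bone array 2.

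Foxc1 (gene ID 17300), the forkhead factor of reticular cells, stood at -0.21 and -0.59 in the trabecular area and at 0.21 and 1.32 in the long bone area. It was the tested member in which long bone array 1 lay farthest above both trabecular arrays. The difference was -1.16 (SE 0.41, interval -2.24 to -0.09), with area means of -0.40 ± 0.27 and 0.76 ± 0.78 (SD, n = 2 each). Its unadjusted p was 0.0396, where 15.5% of all genes were under 0.05 in either direction and 4.62% as lower in the trabecular area, and its adjusted p in limma was 0.307. Without long bone array 2 the difference was -0.61, the largest left among the 7 members that were high on that array.

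Nes (gene ID 18008) was nearly flat. It stood at -0.03 and -0.10 in the trabecular area and at 0.06 and 0.01 in the long bone area, a span of 0.16. The areas did not overlap, yet the difference was -0.10 (SE 0.12, interval -0.42 to 0.22, limma adjusted p = 0.708). The interval leaves room for a change of up to 0.42 downward or 0.22 upward.

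Bst1 (gene ID 12182) ran the other way. It stood at 1.30 and 0.06 in the trabecular area and at -0.72 and -0.06 in the long bone area, so that trabecular array 1 was high, long bone array 1 low and the other arrays lay between. The areas did not overlap. The difference was 1.07 (SE 0.48, interval -0.21 to 2.35, limma adjusted p = 0.368), 0.45 without trabecular array 1 and 1.40 without long bone array 2.

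Esm1 (gene ID 71690), added for its height on long bone array 2, stood at 4.71 there, the highest value of all 18193 genes on that array. Its trabecular values were 0.68 and -1.14, and long bone array 1 read -0.68. Its 2 long bone values thus differed by 5.39, and the trabecular values by 1.82. The difference between the area means was -2.25 and became 0.45 without long bone array 2.

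**Figure D1:**
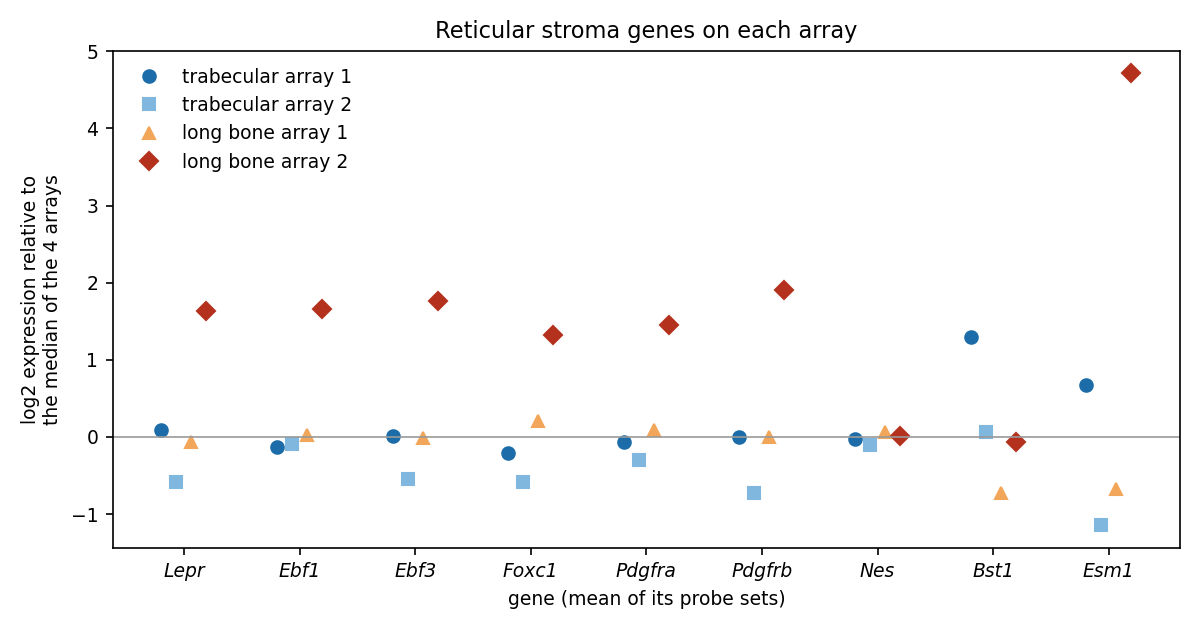
Log2 values of the 9 genes, centred on the 4-array median (vertical axis), each gene as the mean of its probe sets, with 1 point per array. Long bone array 2 is the highest point for 7 genes, from 1.32 for Foxc1 to 4.71 for Esm1, while Nes spans 0.16 and Bst1 is highest on trabecular array 1.

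Across the 8 tested members 0 had an adjusted p under 0.05 in limma, and the share of all 18193 genes called was 0%. At an unadjusted p under 0.05 the count was 1 of 8 members (Foxc1) and 2811 genes. In all, 8 of the 9 members were lower in trabecular arrays, and the median difference over the 9 was -1.03, while 45.4% of all genes were lower, with a median of 0.03. Esm1 is one of these 8 and had been chosen for a value that sets its direction. At least 2-fold lower were 5 members (Lepr, Ebf3, Foxc1, Pdgfrb and Esm1), beside 1.35% of all genes, and at least 2-fold higher was Bst1, beside 1.54%. Areas without overlap and lower in the trabecular area were found for 4 members (Ebf1, Foxc1, Pdgfra and Nes), beside 21.4% of all genes, and the opposite for Bst1, beside 29.9% of all genes.

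The size of the difference depended on which long bone array was used. Without long bone array 2 the median over the 9 members was -0.18, and without long bone array 1 it was -1.77. In the fit without long bone array 1, 6 of the 8 tested members passed the adjusted threshold as lower in the trabecular area, where 3.02% of all genes did (8.81% in either direction). Their adjusted p lay between 0.0358 (Ebf1 and Pdgfra) and 0.0458 (Lepr) in that limma fit; over the alternatives tried, the adjusted p ran from 0.0358 to 0.897 for Ebf1 and from 0.0458 to 0.933 for Lepr. That fit has 1 array in the long bone area and can estimate the spread only between the 2 trabecular arrays, so the lone array is assumed to vary as they do. The same array left out of the fit over probe sets gave 0 of 24 member probe sets and 0 of all 45037 called, with a lowest adjusted p of 0.0539 in limma.

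**Figure D2:**
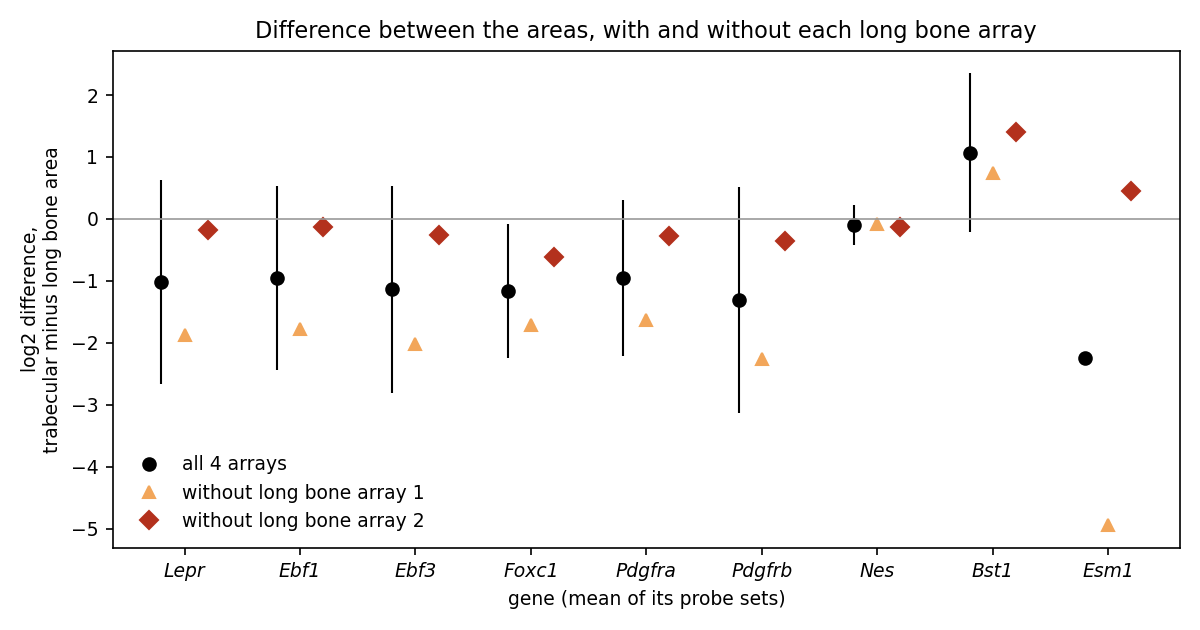
Log2 difference, trabecular minus long bone area, for each of the 9 genes (vertical axis): black points use all 4 arrays with 95% intervals from the moderated fit (none for Esm1), triangles leave out long bone array 1 and diamonds leave out long bone array 2. For the 6 tested genes high on long bone array 2 the difference lies between -0.96 and -1.31 with all arrays and between -0.14 and -0.61 without that array.

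On long bone array 2 alone, 7 of the 9 members lay at least 1 above the 4-array median, beside 1.69% of all genes. This array was the one that brought Esm1 into the list, and earlier results had shown the height of reticular stroma genes on it, so nothing is read from the count. All 7 lay in the top 1% of genes on that array: 0.352% of all genes were at least as high as Pdgfrb, 0.495% as high as Ebf3 and 0.995% as high as Foxc1, the lowest of the 7. On trabecular array 1, 1 member (Bst1) lay at least 1 above the median, beside 0.528% of all genes. On trabecular array 2 and long bone array 1 none of the 9 did, beside 0.0824% and 0.39% of genes. Trabecular array 2 was the lowest array for 7 of the 9 members (Lepr, Ebf3, Foxc1, Pdgfra, Pdgfrb, Nes and Esm1), and the lowest for 28.6% of all genes.

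**Figure D3:**
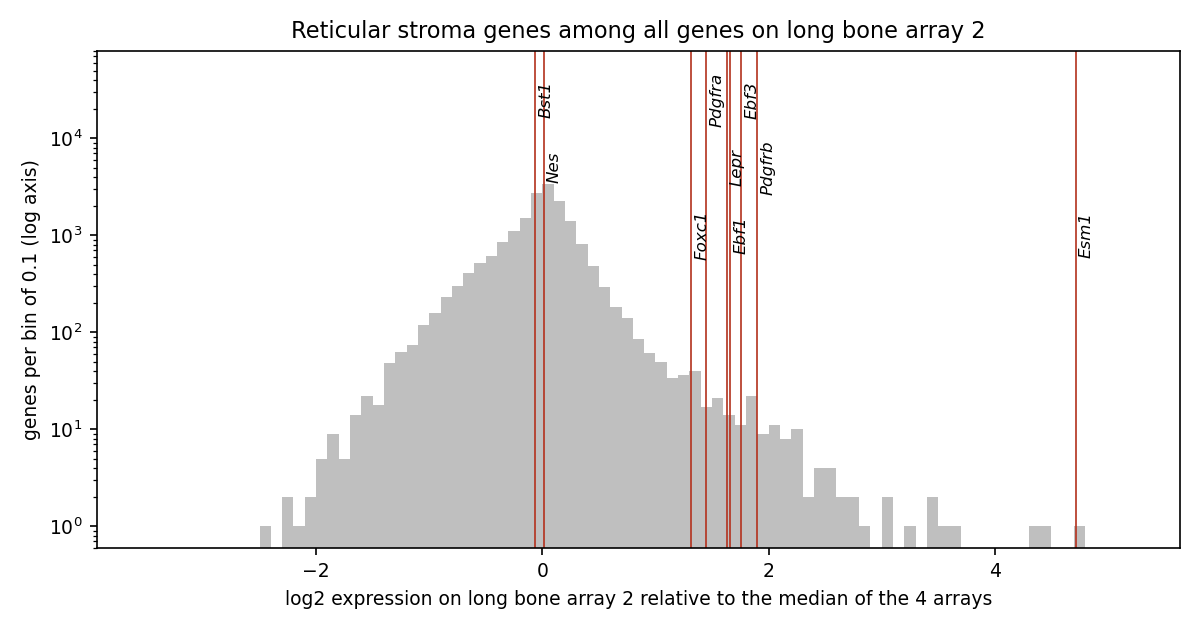
Number of genes per bin of centred log2 value on long bone array 2 (grey, log vertical axis, 18193 genes), with a red line for each of the 9 genes and its name to the right of the line. Esm1 lies at 4.71, 6 genes lie between 1.32 and 1.90, and Nes and Bst1 lie at 0.01 and -0.06.

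The probe sets of a gene often disagreed in size, and the mean over them hides this. For Lepr, probe set 1456156_at stood at 3.80 on long bone array 2 and at -1.60 on trabecular array 2. Probe sets 1425644_at and 1425875_a_at stood at 1.68 and 1.03 on long bone array 2, and 1425873_a_at at 0.01. So 3 of the 4 Lepr probe sets were high on that array and the other was flat, with a span of 0.27 over all arrays.

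The 5 probe sets of Ebf1 were each highest on long bone array 2, from 0.57 (1457441_at) to 3.74 (1416301_a_at), with 1448293_at at 2.14. Those of Ebf3 stood at 0.95, 3.05 and 1.27 on it. The lowest of these, 1428349_s_at, is of a kind whose probes can match more than 1 transcript, and signal from related EBF transcripts could not be separated here. For Foxc1 the pair stood at 0.49 and 2.14.

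Both PDGF receptors had a probe set that did not follow. For Pdgfra, 1421917_at and 1438946_at stood at 2.07 and 2.30 on long bone array 2, and 1421916_at at -0.02. For Pdgfrb, 1436970_a_at stood at 3.64 there and at -1.19 on trabecular array 2, while 1417148_at stood at 0.16 and -0.26. The 2 probe sets of Bst1 ran alike, at 1.45 and 1.14 on trabecular array 1 and at -0.66 and -0.78 on long bone array 1, although trabecular array 2 and long bone array 2 were tied at 0 for 1449453_at. The 3 of Nes stayed between -0.38 and 0.21. Both ends belong to 1418289_at, which was highest on long bone array 2 and lowest on trabecular array 2. Its areas did not overlap, and it differed by -0.39 (limma adjusted p = 0.339), against 0.08 for 1449022_at and 0.01 for 1453997_a_at.

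In all, 19 of the 25 member probe sets were highest on long bone array 2, as were 35.8% of all probe sets, and 13 lay at least 1 above the median on it, beside 2.29%. Both counts include the Esm1 probe set, which was chosen for that height. Earlier results had also shown the height of reticular stroma genes on that array, so nothing is read from these counts. Of the 24 tested probe sets 0 were called in limma over 45037 probe sets (0% of all), with adjusted p from 0.278 (1419485_at of Foxc1) to 0.985, and 1 (1419485_at) was at an unadjusted p under 0.05 against 7325 of all (16.3%). The areas did not overlap for 10 probe sets that were lower in trabecular arrays, beside 26.2% of all, and for 1 that was higher, beside 25.9%. The steps in which the deposited numbers are written give a coarse band of the level before centring, on the lowest array only. These steps placed 19 member probe sets at 4 to 8 on the log2 scale, 2 at 8 and above, both of Nes, and 2 at 2 to 4. The other 2 could not be read. Other arrays can lie above the band, as for Esm1, which was placed at 4 to 8 and spans 5.86. No low or high level is drawn from this beyond the band.

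**Figure D4:**
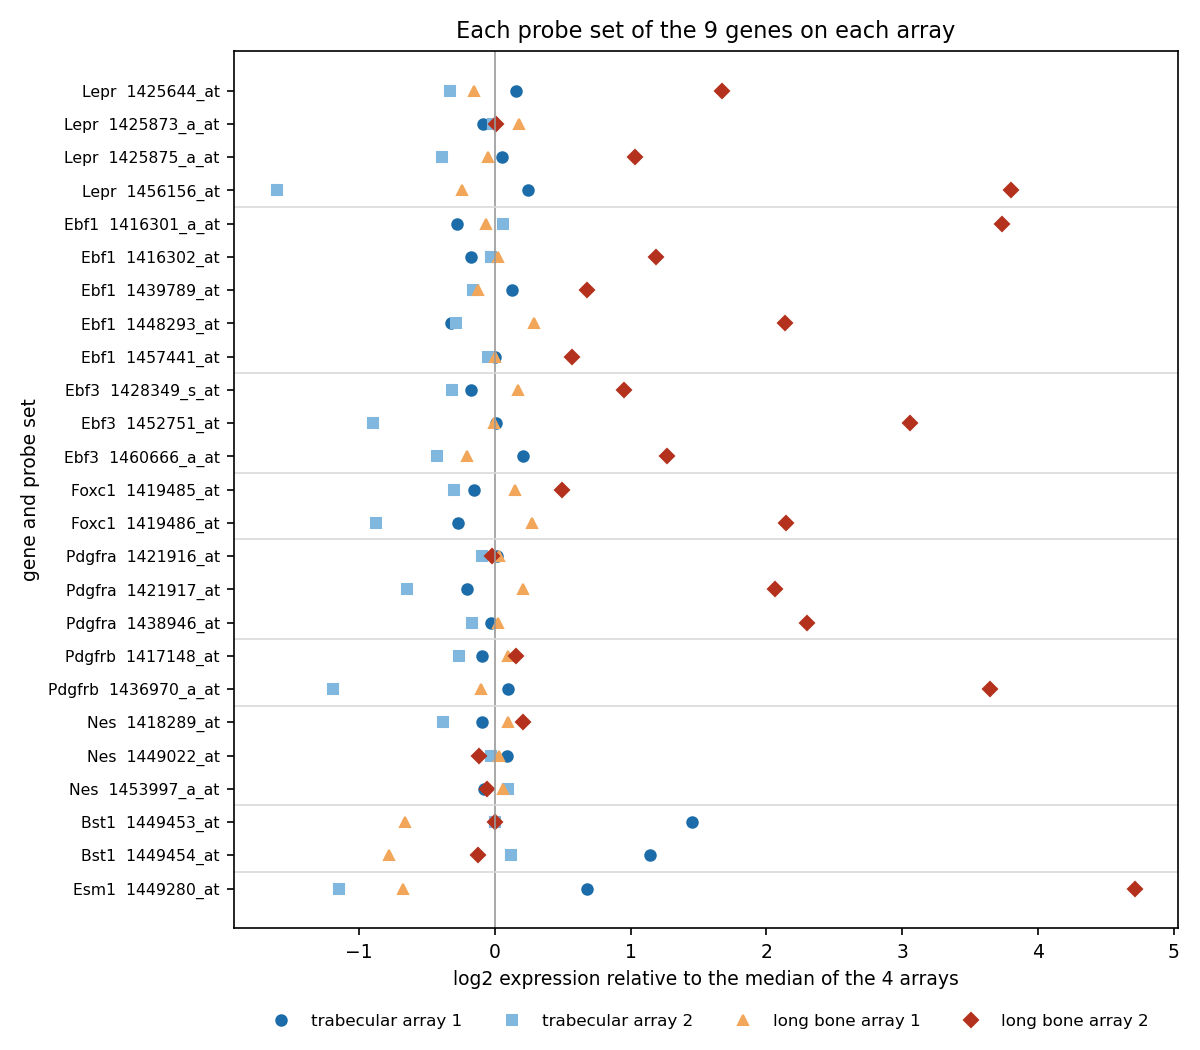
Centred log2 values (horizontal axis) for each of the 25 probe sets of the 9 genes, with 1 point per array. Within Lepr, Pdgfra and Pdgfrb a probe set at -0.02 to 0.16 on long bone array 2 stands beside others at 1.03 to 3.80.

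The genes whose 4 values lay nearest to those of each member, by root mean square difference over the 4 arrays, were named for the 8 members with a span of at least 1. With 4 arrays this is a description of shape only. Nearest to Esm1 was Adipoq, the gene of the fat cell hormone adiponectin, at 0.119, with values of 0.72 and -1.10 in the trabecular area and of -0.72 and 4.49 in the long bone area. The next were Serping1 at 0.549 and Id3 at 0.711. Nearest to Lepr were Dact1 (0.0456), Col4a2 (0.0509) and Ebf3 itself (0.0829), and nearest to Foxc1 were Hoxc8 (0.0288), Rbms3 (0.0400) and Olfml2b (0.0423). B3galnt1 was the nearest gene to both Ebf3 (0.0742) and Pdgfrb (0.0622). Next came Lepr and C1s1 for Ebf3, and Id4 and Epas1 for Pdgfrb. Fxyd1, Phex and Fabp5 were nearest to Pdgfra, and Angptl4, Mdk and Zscan26 to Ebf1. Bst1 had other neighbours, S100a6 (0.0918), Lmnb1 (0.112) and Antxr2 (0.149).

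Of 15 factors that reticular cells make or depend on, 13 were highest on long bone array 2, as were 35.2% of all genes. On it 8 lay at least 1 above the median, beside 1.69% of all genes. The list was chosen with earlier results of these data known, so nothing is read from these counts. Its median was 1.04 there and 0.10, -0.42 and -0.17 on the other 3 arrays (trabecular first). Cxcl12, the chemokine that holds blood stem cells in the marrow, stood at 0.19 and -1.35 in the trabecular area and at -0.19 and 1.89 in the long bone area. Kitl, the stem cell factor gene, stood at 1.32 on long bone array 2, the interleukin gene Il7 at 0.86 and the adhesion gene Vcam1 at 0.71. Snai2, a transcription factor of mesenchymal cells, was at 2.72, the binding protein gene Igfbp5 at 2.03 and the BMP antagonist gene Grem1 at 1.66. The fat lineage factor Pparg was at 1.30 on that array. The 2 exceptions were Cebpa, which was highest at 0.31 on trabecular array 2, and Cebpb, which was highest at 0.87 on trabecular array 1. Between the areas, 2 of the 15 genes were higher in the trabecular one and 13 lower, where 45.4% of all genes were lower. The median difference was -0.55 and became 0.04 without long bone array 2, and 0 genes were called in limma.

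Of the relatives and partners of the EBF factors, Ebf2 stood at 0.43 on long bone array 2 and the EBF partner Zfp423 at 0.53, while Ebf4 was highest on long bone array 1, at 0.45. Zfp521, a zinc finger protein that binds EBF1, stood at -0.16 and -0.41 in the trabecular area and at 0.16 and 0.30 in the long bone area, without overlap. All 4 were lower in the trabecular area, as were 45.4% of all genes, and 0 were called. Their median difference was -0.35, against -0.55 and -0.28 when long bone array 1 or 2 was dropped and -0.22 without trabecular array 2.

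Genes of the leptin receptor pathway mostly did not share the height of Lepr on long bone array 2, which was the highest array for 2 of 9 (Socs3 and Irs2). Between the areas 7 were higher and 2 lower in trabecular arrays (median 0.20, and 0.11 without long bone array 2), and 0 were called. The kinase gene Jak2 and the transcription factor gene Stat3, through which the receptor signals, both stood at -0.62 on long bone array 2. Leprot, which shares its first exons with Lepr, stood at -0.20. Socs3, the feedback inhibitor induced by Stat3, stood at 1.60 on that array and at -1.37 on trabecular array 2.

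Of the PDGF ligands and the receptor-like gene Pdgfrl all 5 were highest on long bone array 2, as were 35.2% of all genes. All were lower in trabecular arrays, as were 45.4% of all genes, and 0 were called. Their median difference was -0.42, against -0.52 and -0.29 when long bone array 1 or 2 was dropped. Pdgfa stood at 0.81 on that array, Pdgfc at 0.35, Pdgfb at 0.34 and Pdgfd at 0.24. Pdgfrl stood at -0.31 and -0.73 in the trabecular area and at 0.31 and 1.04 in the long bone area. The difference of Pdgfrl was -1.20, and -0.84 without long bone array 2.

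Other forkhead genes went both ways, 4 higher and 5 lower with a median of -0.07 and 0 called. Leaving out 1 array moved that median: it was -0.22 and -0.0072 when trabecular array 1 or 2 was dropped, and -0.13 and -0.00013 when long bone array 1 or 2 was. Foxc2, the nearest relative of Foxc1, stood at 0.19 on long bone array 2 and at -0.65 on trabecular array 2. Foxd1 differed by -0.64 and Foxo1 by -0.39, and Foxo3 by 0.61. The filament partners of nestin had list medians between -0.12 and 0.11 on the 4 arrays, with 2 of 6 higher, 4 lower and 0 called. Their median difference was -0.16, and was -0.074 without trabecular array 2 and -0.088 without long bone array 2. Vim, the vimentin with which nestin assembles, differed by 0.24, Synm by -0.37 and Des by -0.22.

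Of the enzymes that act on nucleotides outside the cell, as Bst1 does, 2 were measured (Cd38 and Enpp1 were not analysed here). Entpd1 stood at 0.69 on trabecular array 1, where Bst1 was high, and Nt5e at 0.36; both were higher in the trabecular area and 0 were called. Their median difference was 0.46, and was 0.19 without trabecular array 1 and 0.72 without trabecular array 2. Of the vessel growth genes related to Esm1 by their biology, 3 of 8 were higher and 5 lower, with 0 called. The median was -0.23, and was -0.048 without long bone array 2. Vegfc stood at 3.23 on long bone array 2, Vegfa at -0.03, and the receptor genes Kdr and Flt1 at 0.15 and 0.24.

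Markers of other cells known to carry these genes were set beside them, although the Lin-, CD45- and CD31- gates are meant to remove blood cells, early B cells, neutrophils and macrophages among them, and endothelium. For Ebf1, of 9 measured early B cell genes 2 lay at least 1 above the median on long bone array 2, Vpreb1 at 2.42 and Blnk at 1.03. The list's median there was 0.33 (-0.12 to 0.08 on the other arrays). Rag1 and Dntt stood at 0.58, Igll1 at 0.33, Cd79b at 0.29, Cd79a and Il7r at 0.16, and Pax5 at 0.07. Long bone array 2 was the highest array for 7 of these 9 genes, as for 35.2% of all genes. For Esm1, 0 of 10 endothelial genes lay at least 1 above the median on that array, with a list median of 0.07. It was the highest array for 5 of these 10, with values from -0.44 for Tie1 to 0.58 for Plvap, and with Pecam1 at -0.06, Cdh5 at -0.10, Esam at 0.54 and Stab2 at 0.53. For Pdgfrb, 1 of 8 smooth muscle and pericyte genes lay at least 1 above the median there, Tagln at 1.35, with a list median of 0.58. The share of all genes was 1.69%. Long bone array 2 was the highest array for 6 of the 8, with Rgs5 at 0.91, Myh11 at 0.70 and Mcam at 0.64, and not for Cspg4 and Cnn1. For Lepr and Esm1, 2 of 6 adipocyte genes lay at least 1 above the median there, Adipoq at 4.49 and Fabp4 at 1.54. Lpl stood at 0.87, and Retn, Cidec and Lep between 0.04 and 0.10, with a list median of 0.48. Long bone array 2 was the highest array for 4 of the 6. Adipoq is also among the 15 reticular cell factors.

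For Bst1, 0 of 7 neutrophil genes and 0 of 7 macrophage genes lay at least 1 above the median on trabecular array 1. Their medians were 0.00 and 0.20 there. Of the macrophage genes, Cd68 stood at 0.73 on that array, Csf1r at 0.54, Adgre1 at 0.53 and C1qb at 0.20. Mrc1 stood at -0.13, C1qa at -0.15 and Vcam1 at -0.28. The neutrophil genes ranged from 0.04 for Camp down to -1.04 for Elane. Trabecular array 1 was the highest array for 3 of the 7 genes in each list, as for 28% of all genes. Genes of osteoblasts, for which the cells were sorted, had medians of -0.64 and -0.41 in trabecular arrays and of 0.47 and 0.78 in long bone arrays, and chondrocyte genes of -1.53 and -1.51 against 1.76 and 1.48. On these 2 lists both long bone arrays stood apart from both trabecular arrays, whereas the 9 reticular stroma genes had medians of 0.00 and -0.55 in the trabecular area and of 0.00 and 1.63 in the long bone area. The part of these other cells, of RNA quality or of single arrays in the values of the 9 genes was not tested.

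**Figure D5:**
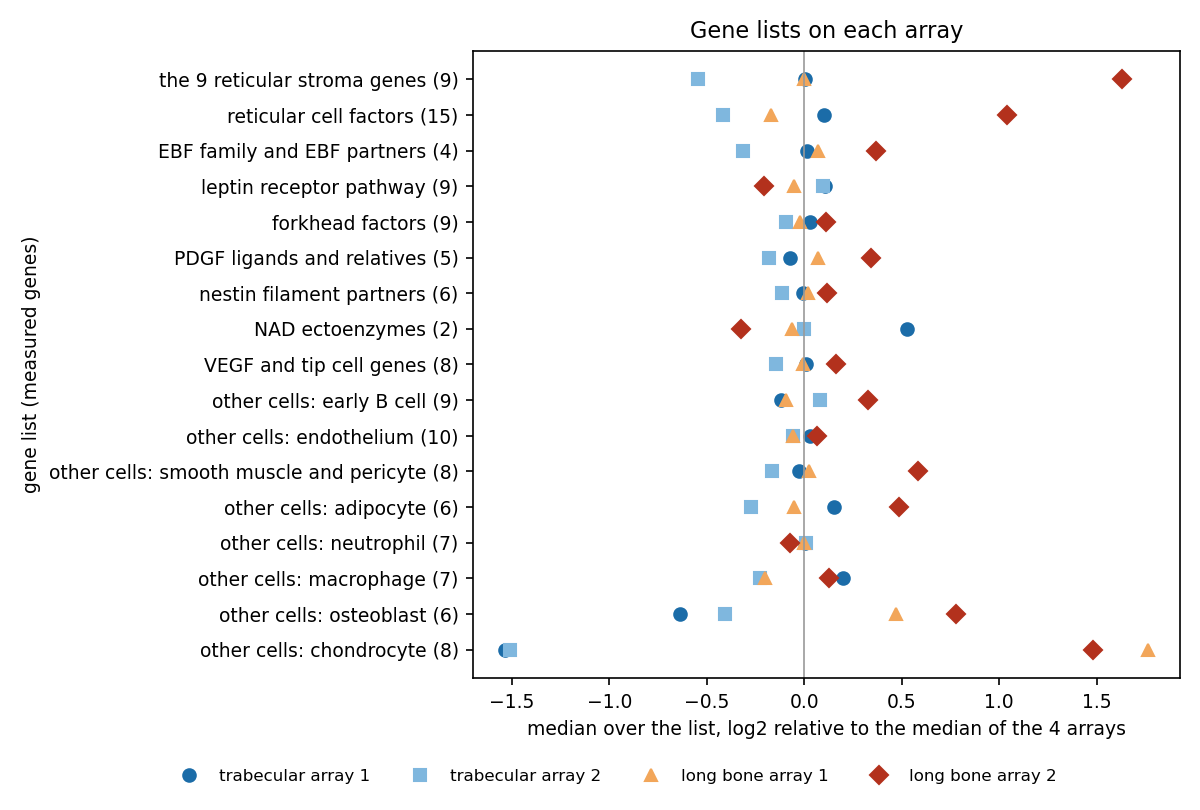
Median centred log2 value over each gene list (horizontal axis), 1 point per array, with the number of measured genes in parentheses. The reticular stroma genes and the reticular cell factors are highest on long bone array 2 (1.63 and 1.04), while the chondrocyte list separates both long bone arrays (1.76 and 1.48) from both trabecular arrays (-1.53 and -1.51).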

How the data were processed

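Amplified, biotin-labelled RNA of sorted mouse bone marrow cells was measured on Affymetrix arrays, per the labels and the series text. That text names a human design, whereas GEO's annotation gives mouse genes for the probe sets. The deposited values were taken to be log2 expression. RMA (a background correction, quantile normalization and summary of probes) is named in the submitters' processing notes without a version. For all 45101 probe sets the median over the 4 arrays was 0 to within rounding, so the values had also been centred; with what software is not given in the sources used here.

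Of 45037 probe sets that are no controls, 34945 had 1 gene in GEO's platform annotation, which gave 18193 genes, each the mean of its probe sets. The fit used limma (version 3.58.1, lmFit then eBayes without trend, 2 residual degrees of freedom; R 4.3.3) for trabecular minus long bone, over all genes and over all probe sets, with Benjamini-Hochberg adjustment and a threshold of 0.05. The number of arrays limits the precision. With 2 arrays in each area, the smallest two-sided p of an exact permutation test is 0.333.

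The 9 genes and the other lists were chosen with earlier results of these data known. Named genes are the 9 members, genes of those lists and, for members with a span of at least 1, the 3 nearest genes, predicted genes passed over. Alternatives were a replicate block, quantile normalization, a robust prior, 3 choices of probe sets and each array left out; the crossed block was added after the data were seen.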

Additional observations from a re-analysis of the deposited data

How the results depend on the processing

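With 2 arrays per area, single arrays decide these values. Leaving out 1 array gave 0 to 6 of the 8 tested members called, 0 to 1603 of all genes and 0 to 12 of the 58 partner genes, the highest of each without long bone array 1, where 0 probe sets were called. The median difference ran from -1.77 to -0.18 over the members and from -1.20 to -0.13 over their probe sets. Among genes whose sign turned, the difference ran from -0.81 to 0.29 for Vcam1, -0.91 to 0.10 for Il7, -4.68 to 0.53 for Adipoq, -1.79 to 0.043 for Grem1, -1.31 to 0.26 for Pparg, -0.53 to 0.020 for Zfp423, -0.35 to 0.043 for Pdgfb, -0.26 to 1.06 for Cebpb, and -0.081 to 0.43 for Nt5e. Among probe sets it ran from -1.76 to 0.071 for 1425644_at (Lepr), -0.70 to 0.11 for 1439789_at (Ebf1), -1.38 to 0.10 for 1460666_a_at (Ebf3), -0.10 to 0.011 for 1421916_at (Pdgfra), and -0.082 to 0.10 for 1453997_a_at (Nes). Esm1 ran from -4.95 to 0.45. Taking the probe set with the largest spread gave a median of -1.94 over the members and 2 called genes in all, with 0 of the tested members among them. With only probe sets read at 8 and above on their lowest array, Nes alone was left, at -0.16. The medians of the partner lists were then -0.64 for EBF relatives, 0.33 for the leptin receptor pathway, 0.026 for forkhead factors, 0.089 for nestin partners, 0.063 for nucleotide enzymes and 0.028 for vessel growth genes, over the 27 genes left. After quantile normalization 1453997_a_at was at -0.018, and among the 9 member genes only Esm1 changed sign, without long bone array 2. The replicate numbers are not said to pair arrays, and same-numbered arrays deviated from their area means with a correlation of -0.11 over genes. With the replicate block 0 members and 0 genes were called (2450 genes at an unadjusted p under 0.05), and with the crossed block 0 and 0 (2709 genes). The cause of these shifts was not tested.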
